A study of Mus musculus with 16 samples.

Results

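The insulin-like growth factor (IGF) genes described here are the 10 listed members of the axis in the FPKM table of mouse seminal vesicles (SVs), chosen by gene name: the ligands Igf1 and Igf2, the receptors Igf1r and Igf2r, and the binding protein genes Igfbp2, Igfbp3, Igfbp4, Igfbp5, Igfbp6 and Igfbp7. All 10 were among the 31274 genes listed, and all 10 were among the 15988 genes tested, which had a mean FPKM (mapped fragments scaled to transcript length and to the size of the library) above 1 in at least 1 group. RNA-seq was done on SVs of C57BL/6 mice at week 5, in 16 samples of 4 groups with 4 samples each. WT-veh were wild-type mice given corn oil, and WT-DES were wild-type mice given the synthetic oestrogen diethylstilbestrol (DES) in corn oil at 2 µg per pup per day from day 1 to day 5 after birth. αERKO-veh and αERKO-DES were mice lacking oestrogen receptor alpha (ERα) in the whole body, given the same vehicle or the same DES dose. The methods describe wild-type pups from purchased pregnant females and αERKO mice from breeding of heterozygotes. Genotype and source of the mice therefore cannot be told apart. The methods give individual mice as the source of RNA in WT-veh, αERKO-veh and αERKO-DES but pools of mice in WT-DES, and a number of WT-DES pools that differs from the 4 WT-DES samples here, so how many mice stand behind each WT-DES sample was not settled. The p-values measure the spread between these samples only.

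IGF1 and IGF2 are secreted growth factors that act through the tyrosine kinase receptor IGF1R, while IGF2R, the cation-independent mannose 6-phosphate receptor, takes up IGF2 and delivers it to lysosomes. The IGF-binding proteins hold the ligands outside the cell, lengthen their life and either restrain or deliver them to the receptor, and proteases such as pregnancy-associated plasma protein A release the ligands by cutting binding proteins. In male accessory glands and in the uterus, IGF1 made by the stroma is a known growth signal to the epithelium, and Igf1 is a known oestrogen-responsive gene in the uterus.

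Esr1, the gene for ERα and the check of the genotype, was measured first. It read 4.43, 4.55, 3.70 and 2.81 FPKM in WT-veh samples 1 to 4, and 8.74, 19.64, 12.99 and 15.71 in WT-DES. In αERKO-veh it was 1.30, 1.59, 1.75 and 1.43 FPKM, while αERKO-DES samples read 0.91, 1.15, 1.51 and 1.64. Each αERKO sample was below each WT sample. The summed FPKM ran from 375207 to 652708 per sample, and samples of a group correlated at Pearson r of at least 0.970. Depth per sample is unknown, since the table holds no read counts.

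The tissue check and 1 sample that stood apart bear on the values below. The summed FPKM of 8 SV secretion markers lay between 49597 and 57994 for WT-veh, and between 2436 and 7951 for WT-DES. The 4 markers listed as anterior prostate summed to 4385 to 9776 in WT-veh, although the SV is described as dissected free of that lobe. Whether these markers stand for that lobe alone was not tested. They summed to 61.3 to 427 in WT-DES, where 4 of 4 were called lower, and to 3464 to 6014 over the αERKO samples. The part of these markers in the changes below was not tested. WT-DES sample 1 held a summed smooth muscle marker level of 3731 (7 genes), within the WT-veh range of 3067 to 3818, whereas the other WT-DES samples held 833 to 1309. Its epithelial markers summed to 1079 (6 genes), against 673 to 779 in the other WT-DES samples and 1088 to 1202 in WT-veh.

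Start-site regions of 5 members whose levels differed between WT-DES and WT-veh are shown first. RefSeq gave 14 windows of 300 bases (250 before to 50 after a transcript start, build GRCm38.p6) for the 10 genes, with 4 for Igf2 and 2 for Igfbp2. The windows of Igfbp3, Igfbp4 and Igfbp6, the binding protein genes that were called higher in WT-DES, are printed with 1 of the Igf2 windows and with that of Igfbp5, the gene called lower. Each reads 5′ to 3′ on the gene's strand. Capitals mark the oestrogen response half-site GGTCA and the androgen response half-site TGTTCT on either strand, and the TATA box TATAAA on the gene's strand.
Igfbp3 (chr11:7213874-7214173, minus strand): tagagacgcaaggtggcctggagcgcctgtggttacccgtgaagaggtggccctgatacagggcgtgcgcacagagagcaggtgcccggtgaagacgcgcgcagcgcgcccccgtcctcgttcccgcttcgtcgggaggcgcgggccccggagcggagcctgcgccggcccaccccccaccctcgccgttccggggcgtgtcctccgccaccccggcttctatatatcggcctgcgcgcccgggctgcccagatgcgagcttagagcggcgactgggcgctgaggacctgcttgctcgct
Igfbp4 (chr11:99040994-99041293, plus strand): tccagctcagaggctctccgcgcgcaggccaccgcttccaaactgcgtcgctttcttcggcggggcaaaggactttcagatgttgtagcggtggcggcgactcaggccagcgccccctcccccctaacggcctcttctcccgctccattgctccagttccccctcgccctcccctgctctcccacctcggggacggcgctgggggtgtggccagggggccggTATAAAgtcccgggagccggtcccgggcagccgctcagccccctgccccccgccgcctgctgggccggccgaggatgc
Igfbp6 (chr15:102143936-102144235, plus strand): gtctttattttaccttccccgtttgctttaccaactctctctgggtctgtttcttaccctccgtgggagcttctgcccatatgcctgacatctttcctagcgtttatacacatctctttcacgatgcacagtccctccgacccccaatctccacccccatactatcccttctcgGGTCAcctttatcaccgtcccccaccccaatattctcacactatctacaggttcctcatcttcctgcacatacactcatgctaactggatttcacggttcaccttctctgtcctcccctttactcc
Igf2 (chr7:142666767-142667066, minus strand): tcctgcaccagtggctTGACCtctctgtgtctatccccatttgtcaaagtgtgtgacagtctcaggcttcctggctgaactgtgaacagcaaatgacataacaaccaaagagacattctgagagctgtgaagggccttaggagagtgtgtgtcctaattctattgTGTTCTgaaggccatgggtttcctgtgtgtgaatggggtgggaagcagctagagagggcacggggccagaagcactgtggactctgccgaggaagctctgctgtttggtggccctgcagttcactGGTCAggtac
Igfbp5 (chr1:72874816-72875115, minus strand): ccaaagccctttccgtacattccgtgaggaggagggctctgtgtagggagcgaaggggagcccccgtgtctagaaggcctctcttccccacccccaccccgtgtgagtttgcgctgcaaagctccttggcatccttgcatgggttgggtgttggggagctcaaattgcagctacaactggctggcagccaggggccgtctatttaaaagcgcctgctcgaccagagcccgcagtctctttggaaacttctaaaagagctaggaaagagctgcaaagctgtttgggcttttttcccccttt

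The windows of the members differed in what they held. The Igfbp4 window had TATAAA with its first base 28 bases before the start. Of the 32851 windows of the same length 8.32% had TATAAA anywhere on the gene's strand. GGTCA stood in 8 of the 14 member windows on either strand and in 40.5% of all windows. The printed Igfbp3 and Igfbp5 windows had none of the 3 motifs, while the printed Igf2 window had 2 GGTCA matches and 1 TGTTCT match, the most of the 4 Igf2 windows. Of the other Igf2 windows 1 had 2 GGTCA matches and 2 had none of the motifs. TGTTCT was found in 2 of the 14 member windows and in 18.97% of all windows. No member window held 2 GGTCA half-sites facing each other with 3 bases between them, as 23 of all windows did. Such letter matches describe the windows only.

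The IGF genes lie on 7 chromosomes in GRCm38, and some share their place with other genes. Igfbp2 (chr1:72824503-72852474, plus strand) and Igfbp5 (chr1:72857932-72874884, minus strand) are neighbours whose ends face each other. Igf2 (chr7:142650766-142666816, minus strand) and Igf2r (chr17:12682406-12769664, minus strand) are imprinted genes, expressed mainly from the paternal and the maternal copy, respectively. Igf2 overlaps Gm49394 on its own strand and the antisense Igf2os, and Igf2r overlaps the antisense Airn. Igf1 overlaps the antisense Igf1os, and Igfbp7 the antisense Polr2b and Gm34648. Whether the library kept strand is not given in the sources used here, so reads of an overlapping antisense gene cannot be told apart from those of these 4 members. H19, Igf2os and Igfbp1 were near 0: H19 reached 0.15 FPKM, Igf2os 0.34 and Igfbp1 0.03 in the highest sample. Airn, by contrast, stood at 17.5 to 25.0 FPKM over the 16 samples.

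On the per-length FPKM scale the binding protein genes were the most abundant IGF genes in all 4 groups. Igfbp7 came first in each group, at a mean of 373 ± 21.4 FPKM in WT-veh and 526 ± 18.02 (SD, n = 4) after DES in WT. In αERKO-veh its samples overlapped those of Igfbp5, the next in order. In WT-veh the order went on with Igfbp5, Igfbp4, Igfbp6, Igfbp2, Igfbp3, Igf2r, Igf1, Igf1r and Igf2. Neighbours whose samples overlapped in that order were Igfbp5 and Igfbp4, Igfbp4 and Igfbp6, Igfbp2 and Igfbp3, Igf2r and Igf1, and Igf1 and Igf1r. Igfbp3 stood 6th in WT-veh, 2nd in WT-DES and 6th in both αERKO groups. Its samples overlapped those of Igfbp4, the next in order, in WT-DES, and those of Igfbp6, the one before it, in αERKO-DES. Igf2 was the lowest of the 10 in each group.

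**Figure D1:**
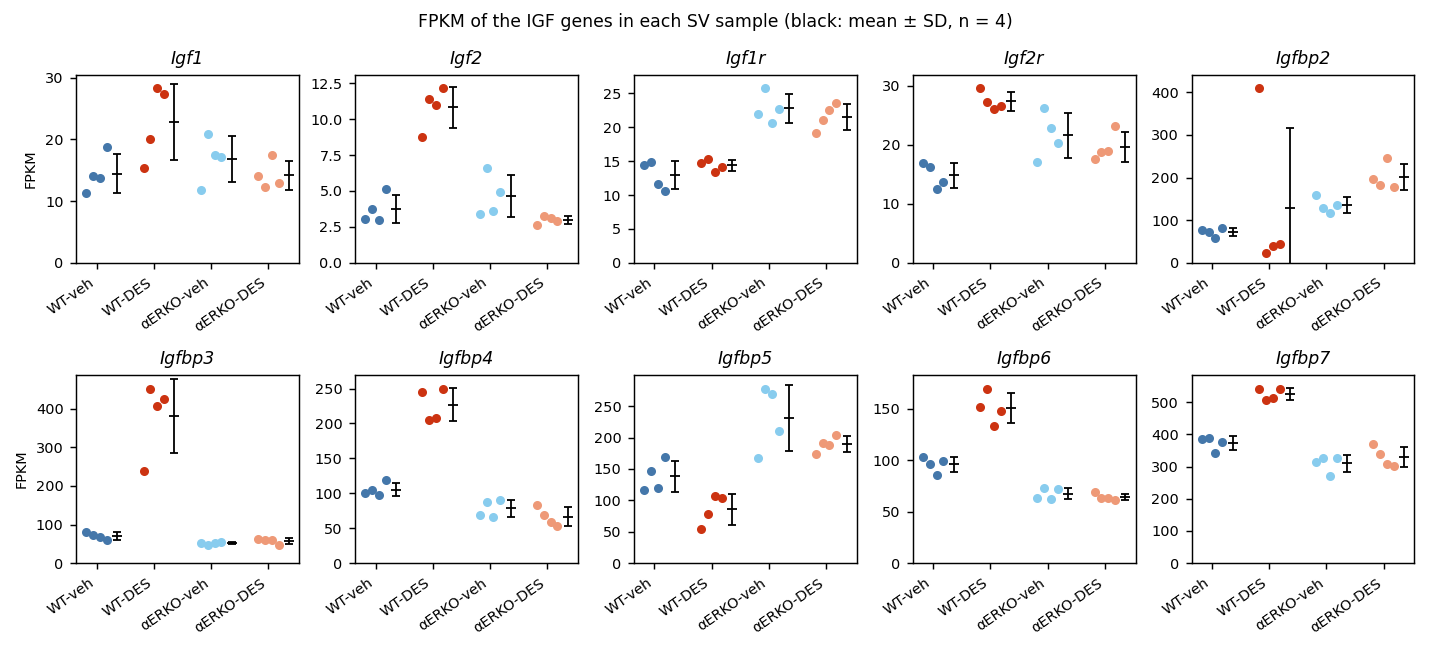
FPKM (vertical axis, linear, from 0) of each IGF gene in the 16 SV samples by group. Coloured points are samples and the black mark is the mean ± SD (n = 4), cut off at 0 for Igfbp2 in WT-DES, where 1 sample reads 409 FPKM and the other 3 read 24.0 to 43.0.

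DES in wild-type mice went with higher levels of 6 IGF genes and a lower level of 1. Genes were called at a Benjamini-Hochberg adjusted p of at most 0.05 in limma, group means that differed by at least 1.5-fold in FPKM, and a mean above 1 FPKM in either group. In WT-DES versus WT-veh 7 of the 10 members were called, against 52.7% of all genes tested. The 6 called higher were Igf1, Igf2, Igf2r, Igfbp3, Igfbp4 and Igfbp6, a direction that 28.9% of all genes took. The 1 called lower was Igfbp5, a direction that 23.9% of all genes took. The median log2 change was 0.62 over the members and -0.01 over all genes. Samples of WT-DES and WT-veh did not overlap for 7 of the 10 members, against 66.7% of all genes, a share near that of the members.

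Igf2, the ligand best known from fetal growth, read 3.08, 3.72, 3 and 5.13 FPKM in WT-veh and 8.77, 11.37, 10.96 and 12.13 in WT-DES. Each WT-DES sample was above each WT-veh sample. Its mean was 2.90 times higher, a log2 change of 1.33 ± 0.17 (SE; limma adjusted p = 5.58e-06). Igf1, the ligand that mediates much of growth hormone action, read 11.34, 14.03, 13.69 and 18.76 FPKM in WT-veh and 15.40, 20.13, 28.26 and 27.39 in WT-DES. The groups overlapped, since WT-DES sample 1 lay below WT-veh sample 4. The rise was 1.58-fold, 0.60 ± 0.20 on the log2 scale (limma adjusted p = 0.0140). The call for Igf1 was lost, with the ratio below the fold threshold, without WT-veh sample 1 (log2 change 0.50), WT-DES sample 3 (0.49) or WT-DES sample 4 (0.51).

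WT-veh samples had an Igf2 to Igf1 FPKM ratio of 0.257 ± 0.0257 and WT-DES samples one of 0.491 ± 0.0905 (SD, n = 4). For αERKO-veh it was 0.275 ± 0.0469, and for αERKO-DES 0.214 ± 0.0401. These ratios are descriptions of the same values and were not tested.

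Of the receptors, Igf2r rose in WT-DES and Igf1r was not called. Igf2r read 16.83, 16.16, 12.45 and 13.77 FPKM in WT-veh and 29.53, 27.18, 26.00 and 26.60 in WT-DES, without overlap. The difference was 1.85-fold, 0.85 ± 0.12 on the log2 scale (limma adjusted p = 1.72e-05). Airn, the noncoding RNA antisense to Igf2r, averaged 19.4 ± 0.572 FPKM in WT-veh and 23.4 ± 2.80 in WT-DES and was not called. Igf1r, the signalling receptor, read 14.50, 14.83, 11.67 and 10.64 FPKM in WT-veh and 14.71, 15.29, 13.34 and 14.15 in WT-DES. These ranges overlapped, and the log2 difference was 0.15 with a 95% interval of -0.06 to 0.37 (limma adjusted p = 0.179). The ratio of Igf1r to Igf2r was 0.872 ± 0.0738 in WT-veh and 0.526 ± 0.0278 in WT-DES.

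Transcript length moved with the groups, and the receptors are the longest members. The longest transcripts are 11409 nt for Igf1r, 8887 nt for Igf2r and 7052 nt for Igf1, against 1112 to 6006 nt for the other 7 genes. Over genes, a sample's deviation from the mean of all samples correlated with transcript length at a Spearman rho of -0.52 to -0.21 in WT-veh and 0.16 to 0.19 in WT-DES. For αERKO samples it was -0.09 to 0.44 after vehicle and -0.28 to 0.17 after DES. With each sample's length trend removed, the log2 change in WT-DES versus WT-veh was 0.39 for Igf2r, below the fold threshold, and 0.23 for Igf1 (limma adjusted p = 0.323). That for Igf1r was then -0.38 (limma adjusted p = 8.47e-05), with the opposite sign. The changes of Igf2, Igfbp3, Igfbp4, Igfbp5 and Igfbp6 stayed called, and that of Igfbp7 was then called too.

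The binding protein genes moved in different directions with DES. Igfbp3, the main carrier of IGF in blood, read 81.32, 72.40, 67.23 and 58.92 FPKM in WT-veh and 238.75, 451.51, 407.90 and 423.96 in WT-DES. Even the lowest WT-DES sample, sample 1, was above all WT-veh samples. Igfbp3 had the largest change of the 10 members, 5.44-fold or 2.39 ± 0.17 on the log2 scale (limma adjusted p = 1.40e-08). Igfbp4, an inhibitor of IGF action that is cut by pregnancy-associated plasma protein A, read 100.02, 105.18, 97.59 and 118.69 FPKM in WT-veh and 244.47, 205.07, 207.68 and 249.67 in WT-DES. The groups were apart, by 2.15-fold and 1.10 ± 0.14 on the log2 scale (limma adjusted p = 4.09e-06).

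Igfbp6, which prefers IGF2 as its ligand, read 102.68, 96.59, 85.59 and 99.35 FPKM in WT-veh and 151.51, 169.27, 133.10 and 147.88 in WT-DES. The ranges did not meet, and the difference was 1.57-fold, 0.64 ± 0.08 on the log2 scale (limma adjusted p = 5.81e-06). Igfbp7, which binds IGFs weakly and is abundant in vessels and stroma, read 386.26, 389.67, 342.64 and 375.13 FPKM in WT-veh and 540.63, 507.20, 513.05 and 541.48 in WT-DES. Its samples did not overlap either, with a log2 change of 0.49 ± 0.09 (limma adjusted p = 0.000132), but the ratio of 1.41 was below the threshold of 1.5, so it was not called. It was called higher under other scalings, with log2 changes of 1.51 with quantile normalization, 0.93 with equal totals and 0.90 with the length trend removed.

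Igfbp5, a binding protein held in the matrix and linked to muscle and involuting glands, was the member that fell. It read 117.12, 147.09, 119.76 and 168.70 FPKM in WT-veh and 54.30, 78.07, 106.95 and 103.87 in WT-DES. Each WT-DES sample was below each WT-veh sample, by a mean ratio of 0.621 and a log2 change of -0.71 ± 0.20 (limma adjusted p = 0.00533). The call depended on the scaling. The change was -0.09 with quantile normalization and -0.28 with equal totals, not called in either. Without WT-DES sample 1 (-0.51, limma adjusted p = 0.0165) or WT-veh sample 4 (-0.61, 0.0208) it was still lower but under the fold threshold. Skeletal muscle markers summed to 580 to 1934 FPKM in WT-veh and 40.6 to 345 in WT-DES, with 2 of 10 called lower. WT-DES sample 1 had the highest of the WT-DES sums and the lowest Igfbp5. The part of these markers in the fall of Igfbp5 was not tested.

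Igfbp2, a binding protein of epithelia and of fetal tissue, depended on 1 sample. It read 76.46, 71.65, 59.05 and 82.13 FPKM in WT-veh and 409.19, 23.98, 39.11 and 43.04 in WT-DES. WT-DES sample 1 was above all other 15 samples, while the other WT-DES samples were below all WT-veh samples. With all samples the log2 change was -0.16, with a 95% interval of -1.41 to 1.10 (limma adjusted p = 0.817), while the ratio of mean FPKM was 1.78, in the other direction. With sample weights the log2 change was -0.80 (limma adjusted p = 0.0190). Without WT-DES sample 1 it was -1.04 (limma adjusted p = 0.000124), and Igfbp2 was then called lower. The same sample was the lowest of WT-DES in Igf1, Igf2, Igfbp3, Igfbp5 and Esr1, and the highest in smooth muscle and epithelial markers, as given above. The part of those markers in the Igfbp2 value was not tested. The number of members called in WT-DES versus WT-veh was 7 also without this sample, with Igfbp2 called and Igfbp5 not called.

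**Figure D2:**
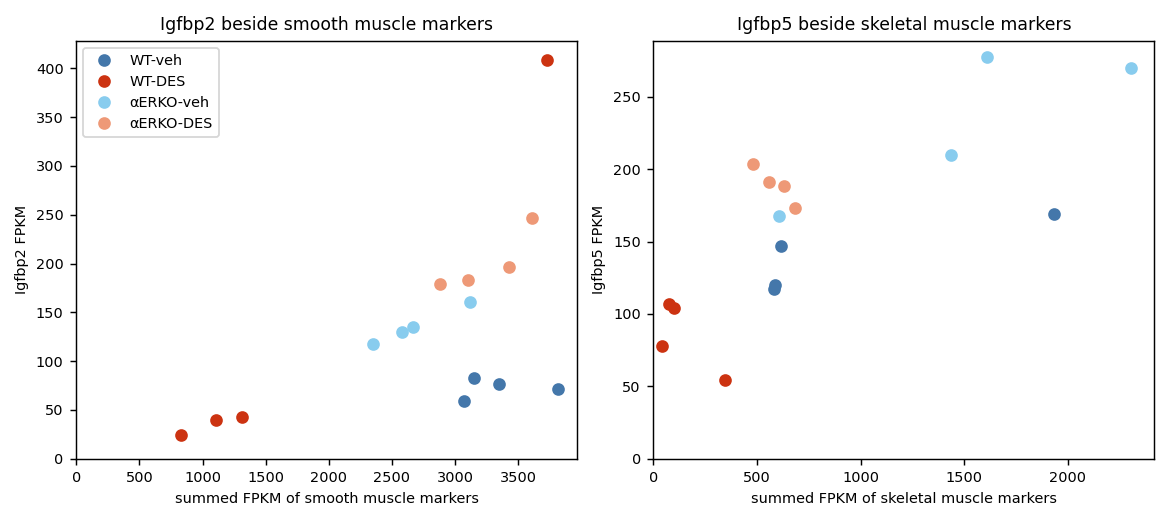
Left, Igfbp2 FPKM (vertical) against the summed FPKM of 7 smooth muscle markers (horizontal) in the 16 samples; right, Igfbp5 FPKM against the summed FPKM of 10 skeletal muscle markers. Axes are linear from 0, points are samples coloured by group, and the WT-DES sample at 409 FPKM of Igfbp2 lies at 3731 on the smooth muscle axis, away from the other WT-DES samples at 833 to 1309.

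The binding protein genes together read higher in WT-DES, and their make-up was different. WT-veh samples had a summed FPKM of the 6 genes of 855 ± 57.9 (SD, n = 4), and WT-DES samples one of 1498 ± 103. The αERKO sums were 874 ± 51.8 after vehicle and 908 ± 47.8 after DES. Igfbp3 made up 8.21% ± 1.23 of this sum in WT-veh and 25.8% ± 7.60 in WT-DES. Igfbp5 made up 16.1% ± 2.14 in WT-veh and 5.81% ± 1.89 in WT-DES. Igfbp7 made up 43.7% ± 1.45 in WT-veh and 35.2% ± 1.52 in WT-DES, although its own mean level was higher. The summed FPKM of the 2 ligands per 100 FPKM of binding protein genes was 2.12 ± 0.406 and 2.27 ± 0.584 for vehicle and DES in WT, 2.44 ± 0.450 and 1.89 ± 0.235 for vehicle and DES in αERKO, and these ranges overlapped. Shares of one sum are tied to each other and were not tested.

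**Figure D3:**
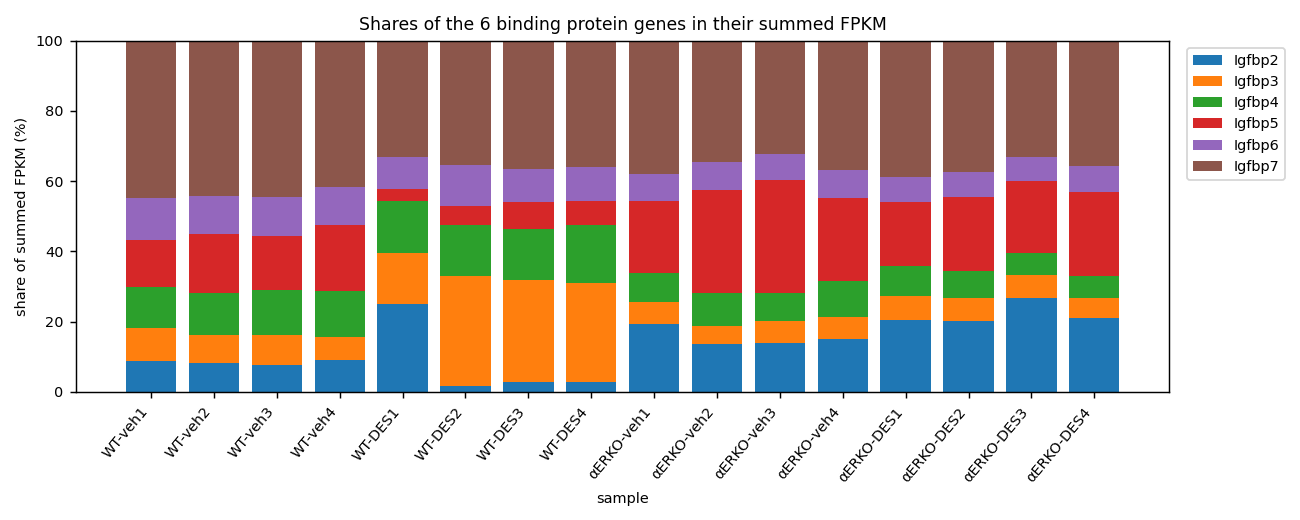
Share (%) of each of the 6 binding protein genes in their summed FPKM, 1 bar per sample, so each bar adds to 100%. Igfbp3 takes 14.6% in WT-DES sample 1, where Igfbp2 takes 25.0%, and more in the other WT-DES samples, while Igfbp2 and Igfbp5 take larger mean shares in both αERKO groups than in WT-veh.

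Other cell types moved with the members in WT-DES. The 8 fibroblast markers summed to 783 to 898 FPKM in WT-veh and 1860 to 1994 in WT-DES, and 6 of 8 were called higher. The leukocyte markers summed to 19.5 to 30.9 FPKM in WT-veh and 108 to 193 in WT-DES, with 9 of 9 called higher. The endothelial markers summed to 53.1 to 65.8 in WT-veh and 120 to 192 in WT-DES, with 5 of 5 called higher. Of the adipose markers 6 of 8 were called higher, and of the smooth muscle markers 5 of 7 were called lower. No defining marker of these lists was at 0 in all samples of a group. In whole tissue, fewer or more cells of a type and less or more RNA per cell cannot be told apart, and the part of cell composition in the changes of the IGF genes was not tested.

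Loss of ERα without DES went with higher levels of the signalling receptor and of Igfbp5. In αERKO-veh versus WT-veh 2 of the 10 members were called, against 7.12% of all genes. Both were higher, as were 4.50% of all genes. The median log2 change was 0.22 over the members and -0.02 over all genes. Igf1r read 21.99, 25.72, 20.66 and 22.75 FPKM in αERKO-veh, above all WT-veh samples, a 1.76-fold difference of 0.78 ± 0.10 on the log2 scale (limma adjusted p = 0.00172). With the length trend removed it was 0.41 (limma adjusted p = 0.00512), below the fold threshold. Igfbp5 read 167.31, 277.60, 269.99 and 210.06 FPKM in αERKO-veh, so that αERKO-veh sample 1 lay just below WT-veh sample 4. The difference was 1.67-fold, 0.73 ± 0.20 on the log2 scale (limma adjusted p = 0.0200).

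Skeletal muscle markers were high in the αERKO-veh samples that were high in Igfbp5. They summed to 606, 1612, 2306 and 1438 FPKM in αERKO-veh samples 1 to 4, and to 1934 in WT-veh sample 4, the WT-veh sample with the most Igfbp5. Of the 10 markers 3 were called higher in αERKO-veh versus WT-veh. The αERKO-DES samples went the other way: their marker sums were 481 to 684 FPKM, while Igfbp5 read 173 to 204, above all WT-veh samples. The part of the skeletal muscle markers in the Igfbp5 values was not tested. The Igfbp5 call was lost without WT-veh sample 1 (0.65, limma adjusted p = 0.0523) or 3 (0.66, 0.0610) and without αERKO-veh sample 2 (0.63, 0.0732) or 3 (0.64, 0.0514), each given as the log2 difference and its adjusted p. It was also lost with no minimum on FPKM (0.73, limma adjusted p = 0.0533) and with the length trend removed (0.53, 0.0906).

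A further 4 members passed the adjusted p but not the fold threshold in αERKO-veh versus WT-veh. Igf2r, at 17.11, 26.20, 22.85 and 20.23 FPKM in αERKO-veh, differed from WT-veh by 0.51 ± 0.12 on the log2 scale (limma adjusted p = 0.0114). Igf2r was called higher with equal totals (0.68) and without WT-veh sample 1 (0.57) or 2 (0.55) or αERKO-veh sample 1 (0.61). Igfbp6 differed by -0.50 ± 0.08 (limma adjusted p = 0.00454), Igfbp4 by -0.43 ± 0.14 (0.0315) and Igfbp7 by -0.27 ± 0.09 (0.0344). The Igfbp7 difference had the opposite sign with quantile normalization (0.070) and with the length trend removed (0.016). For Igfbp2, αERKO-veh samples read 160.04, 129.59, 117.89 and 135.02 FPKM, above all WT-veh samples at a ratio of 1.88. In the model of all groups Igfbp2 was not called with all samples (limma adjusted p = 0.277), and was called higher without WT-DES sample 1 (0.00502). With all samples kept it was called higher in the model of only the groups compared (limma adjusted p = 0.0112) and with sample weights (0.00109). Samples of αERKO-veh and WT-veh did not overlap for 7 of the 10 members, 3 higher and 4 lower, against 29.7% of all genes. Igfbp3, 1 of the 4 lower, had a log2 difference of -0.42 (limma adjusted p = 0.0800).

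Without ERα, DES left no member called. In αERKO-DES versus αERKO-veh 0 of the 10 members were called in limma, against 1.49% of all genes, and 1 had an unadjusted p under 0.05, as had 4042 of the 15988 genes tested. That gene was Igf2, which read 3.38, 6.60, 3.63 and 4.95 FPKM in αERKO-veh, against 2.63, 3.28, 3.14 and 2.90 in αERKO-DES. Its αERKO-DES samples were all below the αERKO-veh samples, with a log2 difference of -0.47 ± 0.17 (limma adjusted p = 0.118). With sample weights it was called lower (limma adjusted p = 0.00177). The adipose markers ranged in sum from 105 to 1140 FPKM for αERKO-veh, and from 33.9 to 76.6 for αERKO-DES. Of these 5 of 8 were called lower, as were 7 of 10 skeletal muscle markers and 2 of 8 fibroblast markers. The part of these markers in the Igf2 value was not tested.

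None of the other 9 members had an unadjusted p under 0.05 in this comparison. Igfbp3 read 51.61, 47.31, 53.01 and 55.16 FPKM in αERKO-veh, against 63.67, 60.02, 61.12 and 46.31 in αERKO-DES. The groups overlapped, and the log2 difference was 0.15 with a 95% interval of -0.21 to 0.51. Igfbp2 read 196.88, 183.42, 247.05 and 178.63 FPKM in αERKO-DES, above all αERKO-veh samples, with a log2 difference of 0.56 (limma adjusted p = 0.576). The SE of 0.59 behind this p is shared by all groups and takes in WT-DES sample 1. It is therefore not the spread of these 2 groups alone. Their means were 136 ± 17.8 FPKM after vehicle and 201 ± 31.3 after DES (SD, n = 4), a ratio of 1.49, below the fold threshold. Samples did not overlap for these 2 genes, Igf2 and Igfbp2, of the 10, against 13.0% of all genes.

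**Figure D4:**
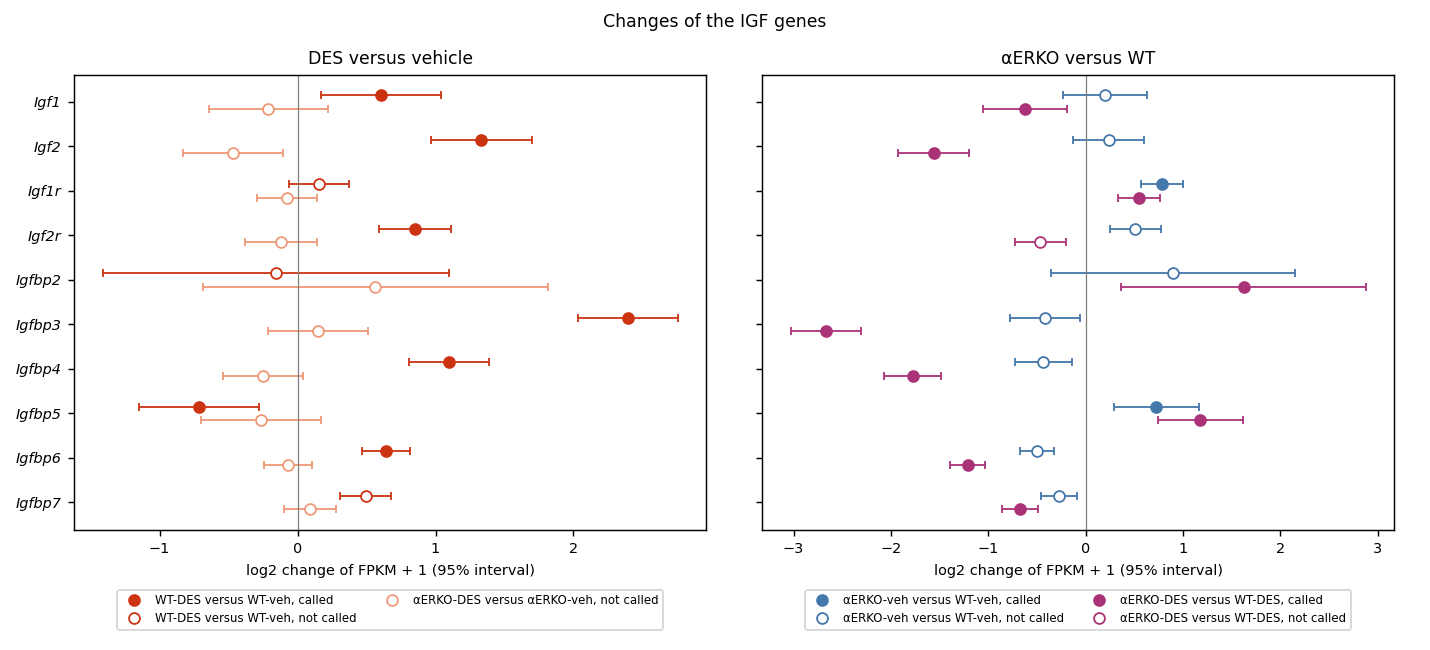
Log2 change of FPKM + 1 (horizontal) for each IGF gene with its 95% interval. The left panel shows DES against vehicle in WT and in αERKO, the right panel αERKO against WT after vehicle and after DES; filled points were called and open points were not. In αERKO the changes with DES lie between -0.47 and 0.56, and in WT between -0.71 and 2.39.

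The change with DES differed between the genotypes for 6 of the 10 members, against 56.4% of all genes tested for the interaction (the DES effect of WT less the DES effect of αERKO on the log2 scale, called at an adjusted p of at most 0.05 and at least 1.5-fold). In all 6 the change was higher in WT, as it was for 29.6% of all genes. The median interaction was 0.77 over the members and 0.00 over all genes. Igfbp3 had an interaction of 2.25 ± 0.24 on the log2 scale (limma adjusted p = 1.39e-06) and Igf2 one of 1.80 ± 0.24 (1.19e-05). Igfbp4 followed at 1.35 ± 0.19 (2.20e-05) and Igf2r at 0.97 ± 0.17 (0.000154). Igf1 had 0.82 ± 0.29 (0.0185) and Igfbp6 0.71 ± 0.12 (7.58e-05). With the length trend removed, Igf1 was at 0.32 (limma adjusted p = 0.328) and Igf2r at 0.36, below the fold threshold.

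For the other 4 members the interaction was not called, though 3 of them gained a call under another scaling. Igfbp7 passed the adjusted p but not the fold, at 0.40 ± 0.12 (limma adjusted p = 0.00932), and was called at 1.60 with quantile normalization, 0.97 with equal totals and 0.92 with the length trend removed. Igf1r was at 0.23 (limma adjusted p = 0.162), and was called at 0.76 with equal totals (0.00174), while it had the opposite sign with the length trend removed (-0.49). Igfbp5 was at -0.45 (limma adjusted p = 0.171), was called at -0.85 with the length trend removed (0.0137), and had the opposite sign with quantile normalization (0.35) and equal totals (0.11). Igfbp2 was at -0.72 (limma adjusted p = 0.445). It was called at -1.32 with sample weights and all samples kept (limma adjusted p = 0.00329), and at -1.61 without WT-DES sample 1 (4.73e-05). Without that sample 7 members had a called interaction.

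With DES in both genotypes, 9 of the 10 members were called in αERKO-DES versus WT-DES, against 53.4% of all genes. Igf1r, Igfbp2 and Igfbp5 were higher in αERKO-DES, a direction of 23.7% of all genes. Igf1, Igf2, Igfbp3, Igfbp4, Igfbp6 and Igfbp7 were lower, a direction of 29.6% of all genes. The median log2 difference was -0.65 over the members and 0.00 over all genes. This comparison shares the WT-DES samples with that of WT-DES and WT-veh, so the lower and higher genes are not a separate sign of the same pattern. Igfbp3 differed by -2.67 ± 0.17 on the log2 scale (limma adjusted p = 3.19e-09) and Igfbp4, at 83.77, 68.97, 58.99 and 52.79 FPKM in αERKO-DES, by -1.78 ± 0.14 (2.20e-08). Igfbp6 read 68.70, 63.18, 63.03 and 61.69 FPKM in αERKO-DES and differed by -1.21 ± 0.08 (limma adjusted p = 6.53e-09). Igfbp5, at 172.96, 190.79, 188.61 and 203.82 FPKM in αERKO-DES, was higher by 1.18 ± 0.20 (limma adjusted p = 9.47e-05). With quantile normalization this was 0.61 and not called. Igf2r, not called at -0.46, was called lower with quantile normalization (-0.65) and equal totals (-0.83).

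The calls of Igf1r and Igfbp2 were near their thresholds. Igf1r read 19.15, 21.01, 22.61 and 23.53 FPKM in αERKO-DES, all above the WT-DES samples, at a ratio of 1.501. Without WT-DES sample 3 or 4, or αERKO-DES sample 3 or 4, the ratio fell below the threshold, with log2 differences of 0.51 to 0.55. The call was also lost with quantile normalization (0.54) and with equal totals, where the difference was 0.19 (limma adjusted p = 0.197). Igfbp2 had a log2 difference of 1.62 ± 0.59 (limma adjusted p = 0.0213) but a ratio of mean FPKM of 1.56, with WT-DES sample 1 above each αERKO-DES sample and the other WT-DES samples below each. Without WT-DES sample 1 the ratio was 5.70 and the log2 difference 2.51 (limma adjusted p = 2.21e-08). The Igfbp2 call was lost without WT-DES sample 2 (1.16, limma adjusted p = 0.0820), 3 (1.39, 0.0634) or 4 (1.43, 0.0602) or αERKO-DES sample 3 (1.52, 0.0510), each given as the log2 difference and its adjusted p, with ratios of 1.23 to 1.45. With the log2 difference at 1.62 it was lost in a model of only the groups compared (limma adjusted p = 0.0943) and with no minimum on FPKM (0.0551). It was also lost with quantile normalization (1.18, limma adjusted p = 0.0971) and equal totals (1.24, 0.0567), and with the length trend removed (1.42, 0.0387), where the ratio was under the fold threshold. Igf1 was called lower (-0.62 ± 0.20, limma adjusted p = 0.0122) although 1 WT-DES sample, at 15.40 FPKM, lay inside the αERKO-DES range of 12.3 to 17.5. Without WT-DES sample 3 (-0.51) or 4 (-0.52) it was below the fold threshold, and with the length trend removed it was -0.37 (limma adjusted p = 0.109). Samples did not overlap for 8 of the 10 members, against 66.5% of all genes.

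Cell type markers moved with this comparison too. In αERKO-DES the fibroblast (8 of 8), leukocyte (9 of 9), endothelial (5 of 5) and adipose (8 of 8) markers were called lower than in WT-DES, and 5 of 7 smooth muscle markers higher. The SV secretion markers (8 of 8), 3 of 4 anterior prostate markers and 4 of 6 epithelial markers were called higher, and 1 epithelial marker lower. The summed fibroblast markers were 497 to 587 FPKM in αERKO-DES, below the WT-DES range given above, and the leukocyte markers 17.8 to 21.9. Skeletal muscle markers summed to 481 to 684 FPKM in αERKO-DES and 40.6 to 345 in WT-DES, with 1 of 10 called higher and 0 lower. The part of all these markers in the differences of the IGF genes was not tested.

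The rest of the pathway was read from a list of 40 genes, of which 39 were listed and 34 tested. In WT-DES versus WT-veh 15 of the 34 were called higher and 4 lower, with a median log2 change of 0.33, beside 28.9% of all genes called higher and 23.9% lower. Among the proteins that act on IGF outside the cell, 6 of 7 tested genes were called higher. Htra1, a serine protease that cuts binding proteins, averaged 25.9 ± 4.89 FPKM in WT-veh and 53.1 ± 17.0 in WT-DES, a log2 change of 0.98 ± 0.18 (limma adjusted p = 0.000160). Pappa, the protease of Igfbp4, averaged 0.220 ± 0.0245 FPKM in WT-veh and 2.65 ± 0.459 in WT-DES, a log2 change of 1.57 on the scale of FPKM + 1, which understates changes of genes this low. Igfals, the acid-labile subunit that joins IGF and Igfbp3 in blood, averaged 1.26 ± 0.495 and 4.70 ± 1.90 FPKM. Stc1, which inhibits Pappa, and the proteases Adam12 and Pappa2 were the other 3 called higher. Without WT-DES sample 2, Stc1 was at 0.50 with a ratio of 1.49, under the fold threshold. Pappa, Igfals, Adam12 and Pappa2 are below the mean of 5 FPKM set for naming, and Stc1 was outside the 8 largest rises; all 5 were named after their values were seen, as most of a small group.

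Inside the cell, the insulin receptor and its adaptors had calls in both directions. Irs2, a docking protein for the insulin and IGF1 receptors, averaged 0.975 ± 0.459 FPKM in WT-veh and 9.64 ± 2.53 in WT-DES, a log2 change of 2.42 ± 0.23 (limma adjusted p = 2.56e-07). Irs1, the related docking protein, averaged 13.0 ± 2.19 and 8.11 ± 1.82 FPKM, a change of -0.63 ± 0.15 (limma adjusted p = 0.00117). Insr, the insulin receptor, went from 7.34 ± 1.18 to 15.9 ± 1.33 FPKM, a change of 1.03 ± 0.11 (limma adjusted p = 1.15e-06). Of these 11 receptor and adaptor genes 3 were called higher and 3 lower, shares near the 28.9% and 23.9% of all genes. Grb10, an imprinted adaptor that restrains IGF1R and the insulin receptor, was higher by 0.76 ± 0.08 on the log2 scale and its relative Grb14 was lower, with a change of -1.16 ± 0.33. Grb14 read 21.51, 3.65, 4.98 and 5.40 FPKM in WT-DES and 15.9 to 17.6 in WT-veh, so that WT-DES sample 1, which also stood apart in Igfbp2, was above the WT-veh samples and the other WT-DES samples were below them. Its ratio of mean FPKM was 0.529, and without that sample 0.278 (log2 change -1.66, limma adjusted p = 4.61e-09). Without it Irs1 was at -0.51, with a ratio of 0.675, above the fold threshold for a lower call.

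Downstream, 4 of 13 genes of the PI3K, AKT and FOXO group were called higher and 1 lower, where 52.7% of all genes were called. Akt1, the most abundant of them, averaged 154 ± 3.88 FPKM in WT-veh and 90.8 ± 6.77 in WT-DES, a log2 change of -0.75 ± 0.07 (limma adjusted p = 1.16e-07). The transcription factor genes Foxo3 and Foxo1, which AKT keeps out of the nucleus, changed by 1.02 ± 0.19 and 0.89 ± 0.11. Igf2bp2, for a protein that binds Igf2 mRNA, averaged 0.950 ± 0.136 FPKM in WT-veh and 8.01 ± 1.38 in WT-DES, a change of 2.20 ± 0.13 (limma adjusted p = 3.48e-09).

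In the other comparisons the pathway list moved as follows. In αERKO-veh versus WT-veh 4 of the 34 genes were called higher and 0 lower. Over all genes 4.50% were called higher and 7.12% in either direction. The 4 were Pappa2 (1.17), Irs2 (0.91), Foxo3 (0.80) and Insr (0.66), each as a log2 difference. Without αERKO-veh sample 2 the Irs2 call was lost (0.72, limma adjusted p = 0.0515). Over the 34 genes 20 had an unadjusted p under 0.05, as had 6222 of the 15988 genes tested. In αERKO-DES versus αERKO-veh 0 of the 34 were called in limma, against 1.49% of all genes. An unadjusted p under 0.05 was found for 5 of the 34, and for 4042 of the 15988 genes tested. In αERKO-DES versus WT-DES 4 were called higher and 15 lower, beside 23.7% and 29.6% of all genes, the largest differences being Igf2bp2 (-2.12), Irs2 (-2.01), Igfals (-1.86), Adam12 (-1.75) and Pappa (-1.51). The interaction was called for 18 of the 34 genes, a share near the 56.4% of all genes. It was called with the change higher in WT for 15 of the 34, beside 29.6% of all genes, led by Irs2 (2.92) and Igf2bp2 (2.49).

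**Figure D5:**
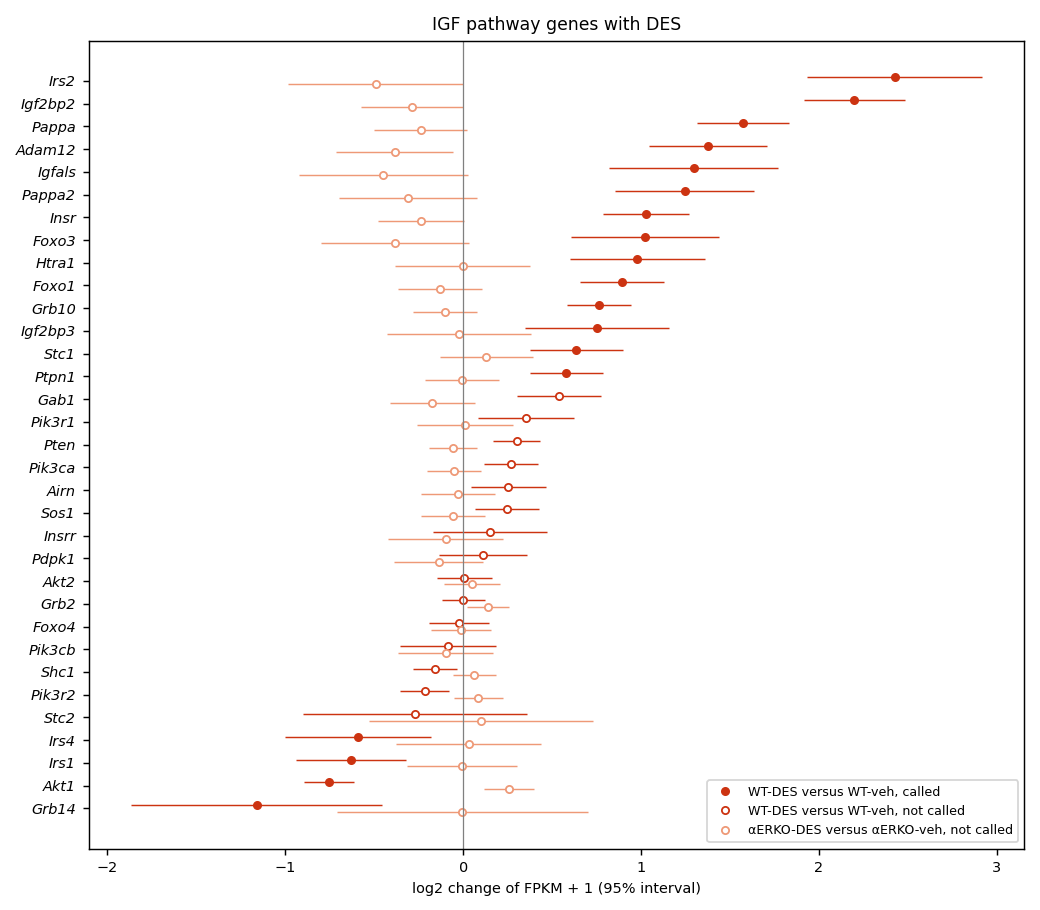
Log2 change of FPKM + 1 (horizontal) with its 95% interval for 33 of the 34 tested genes of the IGF pathway list, ordered by the change in WT. Dark points are WT-DES versus WT-veh and light points αERKO-DES versus αERKO-veh; filled points were called, and 0 of the light points are filled.

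Genes with the pattern nearest to each member were found by Pearson r of log2(FPKM + 1) over the 16 samples, among 12454 genes with a mean of at least 5 FPKM in 1 group. These values are descriptions, since the samples share 4 groups. Igfbp3 was nearest to Ly6h (r = 0.987), Ly86 (0.985) and Lrmp (0.984). Igfbp4 was nearest to Trip6 (0.988), Fscn1 (0.985) and Lsp1 (0.983), and Igfbp6 to Fscn1 (0.974), Rarres2 (0.973) and Csf2rb (0.972). Igfbp7 was nearest to Scarf2 (0.977), Ccdc102a (0.975) and Rbms2 (0.973). Ly86, Lsp1 and Csf2rb are known from leukocytes.

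Igfbp5 was nearest to Neb (r = 0.958), the giant thin-filament protein of skeletal muscle, then to Gpr37l1 (0.956) and Tox3 (0.949). Igfbp2 was nearest to Homer2 (0.942), Abcd3 (0.941) and Sptlc1 (0.935). Genes near Igf1r included Tmtc2 (0.957) and Jade1 (0.950), and Igf2r was nearest to Myh9 (0.978), Dock1 (0.975) and Dip2b (0.973). Igf2 was nearest to Nxpe4 (0.976), Hspa12a (0.972) and Sh3pxd2a (0.972). Igf1 had no gene as near, with Adamts15 at 0.869, Nccrp1 at 0.860 and Parvb at 0.854.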

How the data were processed

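Members and lists were chosen with earlier results of these data known. The deposited values are FPKM per gene, made by the authors per the labels and methods with TopHat2 2.0.4 and Cufflinks 2.0.2 on mm10; the annotation and strandedness are not given in the sources used here. All 16 value columns were mapped to samples by name (0 unmapped).

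The limma package 3.58.1 (R 4.3.3) was fitted to log2(FPKM + 1) of all samples (1 mean for each group, trended eBayes, Benjamini-Hochberg adjustment over 15988 genes), since FPKM gives neither counts nor depth. The fit was tested on simulated data. Fold changes on this scale understate changes of low genes. Named genes were the 10 members, Esr1, called pathway genes (mean of at least 5 FPKM, at most 8 per direction in WT-DES versus WT-veh, at most 5 by size in another comparison) and the 3 genes most like each member; exceptions are stated, and some genes under this rule are not reported or drawn here. Lengths and positions are from GENCODE M21 (GRCm38), where 15048 tested genes (94.1%) had a length; promoter windows are from RefSeq. The authors' methods set the threshold of 1.5-fold. Alternatives covered pseudocount, minimum, fold, model, weights, block, 4 rescalings and each sample left out.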

Additional observations from a re-analysis of the deposited data

Results flagged for a closer look

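Igfbp2 in WT-DES sample 1 read 409.19 FPKM. Its gap to the nearest WT-DES sample was 0.951 of the group's range, above Dixon's 95% critical value for 4 samples. The 10 members in 4 groups gave 40 sets of 4 samples, and chance alone takes about 1 in 20 such sets past that critical value.

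The change with DES differed between WT and αERKO, by the interaction term in limma, for 6 of the 10 members, a share near the 56.4% of all genes tested. The differences of log2 changes (WT minus αERKO) were 0.82 for Igf1, 1.80 for Igf2, 0.97 for Igf2r, 2.25 for Igfbp3, 1.35 for Igfbp4 and 0.71 for Igfbp6.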

How the results depend on the processing

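Of the results with 7, 9 and 6 members called (WT-DES versus WT-veh, αERKO-DES versus WT-DES and the interaction), each stayed within 1.5 times its count in each setting that was run. For αERKO-veh versus WT-veh 2 members were called, against 1 with no minimum on FPKM, 6 with no fold threshold and 0 with the length trend removed. Leaving out each sample in turn gave 6 to 7, 6 to 9 (6 without WT-DES sample 3 or 4) and 6 to 7 members for the first 3, 1 to 3 for αERKO-veh versus WT-veh and 0 to 0 for αERKO-DES versus αERKO-veh. Sample weights gave 1 call in αERKO-DES versus αERKO-veh, where 0 were called otherwise.

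The sign of a log2 change turned in these cases, for which the cause was not tested. In WT-DES versus WT-veh, Igf1r was at -0.38 with the length trend removed, and Igfbp2 at 0.27 with quantile normalization, 0.27 with equal totals, 0.22 with the length trend removed and -1.04 to 0.30 over the left-out samples (0.30, 0.075 and 0.030 without WT-DES samples 2, 3 and 4). In αERKO-veh versus WT-veh, Igf1 was at -0.051 without the length trend, and Igfbp7 at 0.016 without it and 0.070 with quantile normalization. In αERKO-DES versus αERKO-veh, Igf1r was at 0.11 and Igf2r at 0.030 without the length trend, and Igfbp7 at -0.017 without it, -0.098 with quantile normalization and -0.041 with equal totals. In the interaction, Igf1r was at -0.49 without the length trend, and Igfbp5 at 0.35 with quantile normalization and 0.11 with equal totals.

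Equal totals (without the 20 highest genes) moved the median of all genes by 0.37 on the log2 scale in WT-DES versus WT-veh, 0.14 in αERKO-veh versus WT-veh, -0.10 in αERKO-DES versus αERKO-veh, -0.33 in αERKO-DES versus WT-DES and 0.49 in the interaction. The share of called genes that were higher went from 54.7% to 78.6%, 63.1% to 92.3%, 5.86% to 1.36%, 44.5% to 24.2% and 52.4% to 78.3%, in the same order. With quantile normalization these shares were 48.5%, 64.5%, 60.0%, 53.1% and 47.0%, of which the third is over 0.0313% of all genes called. The labels number the samples but name no pairs. With group means taken off, same-numbered samples of different groups correlated at -0.21 to 0.28 (median -0.016). Samples of other numbers correlated at -0.30 to 0.26 (median 0.020). For 0 samples was the closest sample in every other group the one of the same number. Few samples would meet so strict a rule by chance, so this count does not settle whether some samples are paired. With the replicate block 7, 2, 0, 9 and 6 members were called in WT-DES versus WT-veh, αERKO-veh versus WT-veh, αERKO-DES versus αERKO-veh, αERKO-DES versus WT-DES and the interaction, so no count moved. Depth is unknown, so the spread of 4 samples sets the precision.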
